A study of Rattus norvegicus with 21 samples.

Results

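The comparison described here set the livers of rats given 258.1 mg/kg of BPDP against those given 129.2 mg/kg, the adjoining lower dose. Its members were chosen by array title, and they were 6 of the 21 arrays of the series, 3 at each dose. BPDP is tert-butylphenyl diphenyl phosphate, an organophosphate added to plastics and fluids to slow burning. Male Harlan Sprague Dawley rats received it in corn oil by oral gavage once daily for 4 days, and the liver was taken on day 5. The lower dose corresponds to 0.338 mmol/kg and the upper to 0.675 mmol/kg. The other arrays were 6 of rats given corn oil alone, called vehicle here, and 3 each at 64.6, 516.2 and 1032.5 mg/kg. All of these groups shared the corn oil and the gavage. The treatment protocol counts 5 vehicle rats, whereas 6 vehicle arrays carry that title. RNA came from pieces of the left lobe, that is, from whole tissue in which fewer cells of a type and less RNA per cell cannot be told apart. Nothing in the titles ties an array to a named animal, so the p-values measure the spread between these arrays.

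The liver answers many lipophilic foreign compounds through nuclear receptors. Peroxisome proliferator-activated receptor alpha (PPAR alpha), which pairs with the retinoid X receptor, raises the enzymes of peroxisomal and mitochondrial fatty acid oxidation in rodents, together with acyl-CoA thioesterases and microsomal Cyp4a hydroxylases. Sterol regulatory element-binding proteins (SREBP) act in the opposite nutritional state and drive cholesterol and fatty acid synthesis. The constitutive androstane, pregnane X and aryl hydrocarbon receptors and the factor Nrf2 control enzymes that oxidise, conjugate and export foreign compounds.

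Values are log2 signals per probe set as deposited, and a gene is represented by its brightest probe set, without comparison of levels between genes. The 6 arrays correlated at Pearson r of 0.9897 to 0.9949 over all probe sets. One of them stood apart in RNA integrity, measured as the log2 signal of the 5' minus the 3' control probe sets of Gapdh and beta-actin. That difference was -3.10 on replicate 1 of 258.1 mg/kg, the lowest of the 21 arrays, against -1.65 and -1.35 on the other two of that dose and -2.0, -1.57 and -1.62 at 129.2 mg/kg. Counts for the leading gene lists are therefore also given without that array. The hepatocyte markers were bright on all 6 arrays: the mean log2 signal of 10 markers was 14.11 to 14.19 at 129.2 mg/kg and 14.02 to 14.14 at 258.1 mg/kg.

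No probe set passed the test between the doses. Of 31042 probe sets, 0 had an adjusted p under 0.05 by limma with Benjamini-Hochberg adjustment, and the lowest adjusted p was 0.241. At an unadjusted p under 0.05 there were 1567 probe sets, or 5.05%, of which 673 were higher and 894 lower at the upper dose. More than 2-fold apart, with no test, were 13 probe sets higher and 52 lower. The values below are therefore differences between group means with their errors, and none is a called change. One setting changed this count by far the most: when arrays were weighted by their estimated quality, replicate 2 of 129.2 mg/kg received a weight of 6.18 against 0.416 to 1.61 for the other 20, and 568 probe sets passed, 160 of them higher.

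The working description of this dose pair is that most induction begins between its doses. Against vehicle, 69 probe sets rose and 39 fell at 129.2 mg/kg, 0.348% of those tested, and 423 rose and 308 fell at 258.1 mg/kg, 2.35%. These counts share the vehicle arrays and do not test the doses against each other. The step itself gave 0 calls, as did those from 64.6 to 129.2, from 258.1 to 516.2 and from 516.2 to 1032.5 mg/kg, while the step from vehicle to 64.6 mg/kg gave 77. A test of whether the step from 129.2 to 258.1 mg/kg differed from the step below it found 0 probe sets by limma (lowest adjusted p 0.24, with 1043, or 3.36%, at an unadjusted p under 0.05). The same test against the step above found 0 (lowest adjusted p 0.345, with 1485, or 4.78%, at an unadjusted p under 0.05). An onset between these doses was thus not established by either test.

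**Figure D1:**
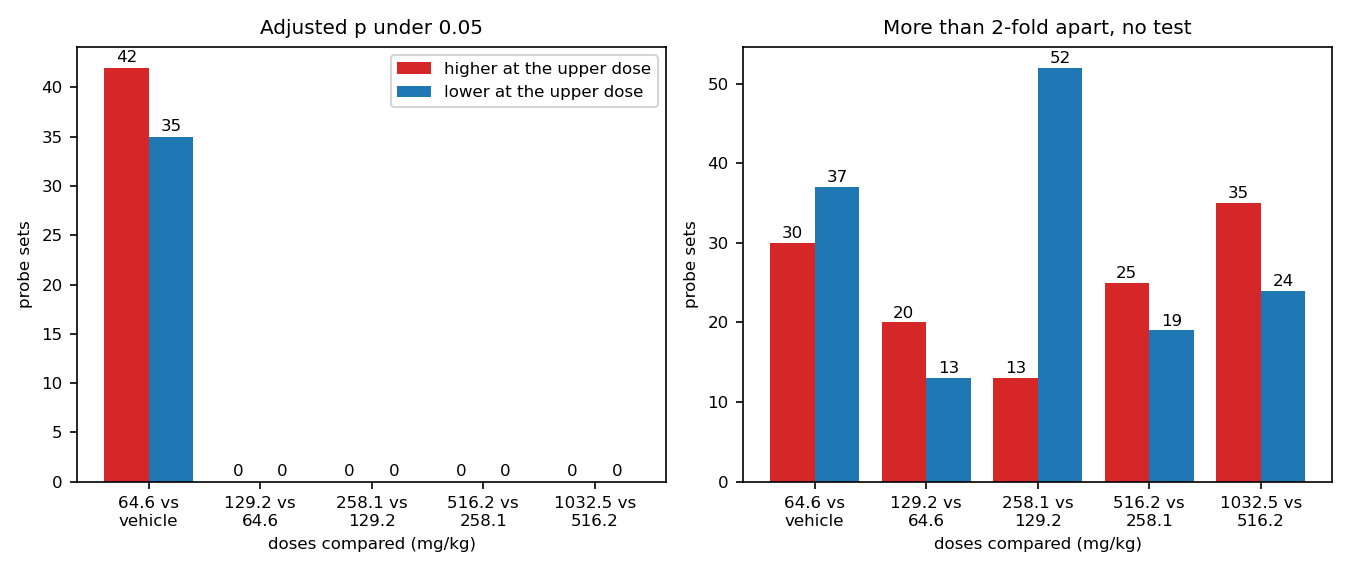
Number of probe sets (vertical axes) in each of the 5 steps between adjoining doses (horizontal axes, mg/kg), red for higher and blue for lower at the upper dose. At an adjusted p under 0.05 (left) the step from 129.2 to 258.1 mg/kg had 0 in either direction, as did the other steps between doses, and the step from vehicle had 42 and 35; more than 2-fold apart with no test (right), it had 13 higher and 52 lower.

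The start regions of 4 genes with large differences are printed here, since the genes stand for the thioesterases, the cholesterol pathway and taurine transport. Each runs from 250 bases before to 50 bases after the RefSeq start of the gene on build GRCr8, on the gene's own strand. Capitals mark a match on either strand to 1 of 5 motifs searched: the nuclear receptor half-site AGGTCA, the direct repeat of that half-site spaced by 1 base, the antioxidant response element core TGACNNNGC, the sterol element TCACNCCAC and the D-box TTATGNAA.
Acot1, chr6:109367024-109367323, plus strand: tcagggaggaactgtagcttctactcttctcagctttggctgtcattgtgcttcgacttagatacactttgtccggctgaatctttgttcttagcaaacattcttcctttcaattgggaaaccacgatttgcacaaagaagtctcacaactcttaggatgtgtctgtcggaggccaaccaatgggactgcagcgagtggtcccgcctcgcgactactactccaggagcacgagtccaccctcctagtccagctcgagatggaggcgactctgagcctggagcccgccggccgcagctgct
Acot2, chr6:109342590-109342889, plus strand: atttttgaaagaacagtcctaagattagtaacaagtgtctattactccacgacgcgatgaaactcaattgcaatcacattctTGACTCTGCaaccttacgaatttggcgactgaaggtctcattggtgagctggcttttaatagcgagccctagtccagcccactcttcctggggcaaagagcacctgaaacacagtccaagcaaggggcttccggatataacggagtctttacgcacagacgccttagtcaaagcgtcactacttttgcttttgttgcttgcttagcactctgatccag
Idi1, chr17:66547475-66547774, minus strand: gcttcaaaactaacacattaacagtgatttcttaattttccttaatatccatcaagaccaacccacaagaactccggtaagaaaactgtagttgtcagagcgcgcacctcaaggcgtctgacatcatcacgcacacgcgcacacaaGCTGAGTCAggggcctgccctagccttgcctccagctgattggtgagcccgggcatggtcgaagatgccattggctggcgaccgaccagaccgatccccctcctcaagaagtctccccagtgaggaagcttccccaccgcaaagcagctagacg
Slc6a6, chr4:125752252-125752551, plus strand: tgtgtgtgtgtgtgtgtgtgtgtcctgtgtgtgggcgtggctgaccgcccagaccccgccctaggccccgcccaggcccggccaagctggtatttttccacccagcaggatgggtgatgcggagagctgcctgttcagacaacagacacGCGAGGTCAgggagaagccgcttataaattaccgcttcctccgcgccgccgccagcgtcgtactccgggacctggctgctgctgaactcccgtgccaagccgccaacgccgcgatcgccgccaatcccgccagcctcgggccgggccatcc

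The Acot1 window held none of the 5 motifs. Acot2 and Idi1 each held TGACNNNGC, starting at positions -168 and -104 relative to the start. In Slc6a6 a TGACNNNGC match at -101 overlapped an AGGTCA match at -98, and the capitals cover both. Over the thioesterase, peroxisomal and mitochondrial lists as a whole, 13 of 47 windows held AGGTCA, or 27.7%. It was held by 12.7% of the 11734 windows of genes on the array and 15.7% of all 27457. These lists hold genes whatever their difference. Among genes apart without overlap at an unadjusted p under 0.05, it was in 36 of 222 windows of higher genes, or 16.2%. For lower genes it was in 14 of 190, or 7.37%. The direct repeat was found in 0 of the 47 list windows and in 0.0341% of the array's windows. TCACNCCAC was found in 0 of 18 windows of the cholesterol list and in 1.12% of the array's. A match is a description of the letters in the window and not a bound site.

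Among 14217 genes, 723 (5.09%) had all 3 arrays at 258.1 mg/kg above all 3 at 129.2 mg/kg, and 599 (4.21%) had them all below. The median log2 difference over all genes was 0.02. Without replicate 1 of 258.1 mg/kg the same shares were 8.15% and 7.3%. Leaving out any 1 of the 6 arrays raised these counts by construction, to between 1131 and 1859 genes higher and between 1038 and 1321 lower. Each list of genes below is read against these shares. Genes named with a list's brightest member stand for it whatever their difference.

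Acyl-CoA thioesterases, which release free fatty acids from coenzyme A, were higher without overlap in 5 of 9 measured genes. Acot1, the cytosolic long-chain enzyme, read 3.84, 3.43 and 3.81 at 129.2 mg/kg and 6.22, 7.18 and 8.98 at 258.1 mg/kg. All 3 upper arrays lay above all 3 lower ones, and replicate 3 read highest. The log2 difference was 3.77 (SE 0.67, 95% interval 2.38 to 5.16, adjusted p = 0.241). No fold is given, since the mean of 3.69 at 129.2 mg/kg lay below the lower quartile of all signals, 5.04, as did the vehicle arrays at 3.39 to 3.70. The log2 difference starts from that dim signal and is not an exact size. Against vehicle, Acot1 rose at 258.1 mg/kg (adjusted p = 0.000713) and its difference at 129.2 mg/kg was 0.09 (adjusted p = 0.993). Acot1 was also the gene that passed when RNA integrity was added to the model (difference 4.07, adjusted p = 0.0443), and without replicate 1 of 258.1 mg/kg its difference was 4.39.

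Acot2, the mitochondrial relative of Acot1, read 10.03, 9.53 and 9.99 at 129.2 mg/kg and 10.64, 10.79 and 11.08 at 258.1 mg/kg. The arrays did not overlap, and the ratio of the means was 1.98 (log2 difference 0.99, SE 0.18, adjusted p = 0.241). A second Acot2 probe set gave 1.16. Acot1 and Acot2 are similar neighbours in the genome, so a probe set of one may carry signal of the other. The remaining members were less far apart: Acot12 differed by 0.41, the peroxisomal Acot8 by 0.28 and Acot3 by 0.44 with overlapping arrays, these 3 chosen after their values were seen. Of 9 thioesterases measured, 5 were higher without overlap and 0 lower, with a list median of 0.41. Without replicate 1 of 258.1 mg/kg the counts were 7 and 0, and without replicate 3 of that dose the median was 0.24. Acot12 and Acot3 each differed by 0.24 without that array. Over the step below, which ends at 129.2 mg/kg, the list median was 0.24 with all arrays. Over the step above, which starts at 258.1 mg/kg, it was 0.15. Adjoining steps share arrays, so these medians are set side by side only, and a start of the rise at this step was not tested for the list.

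**Figure D2:**
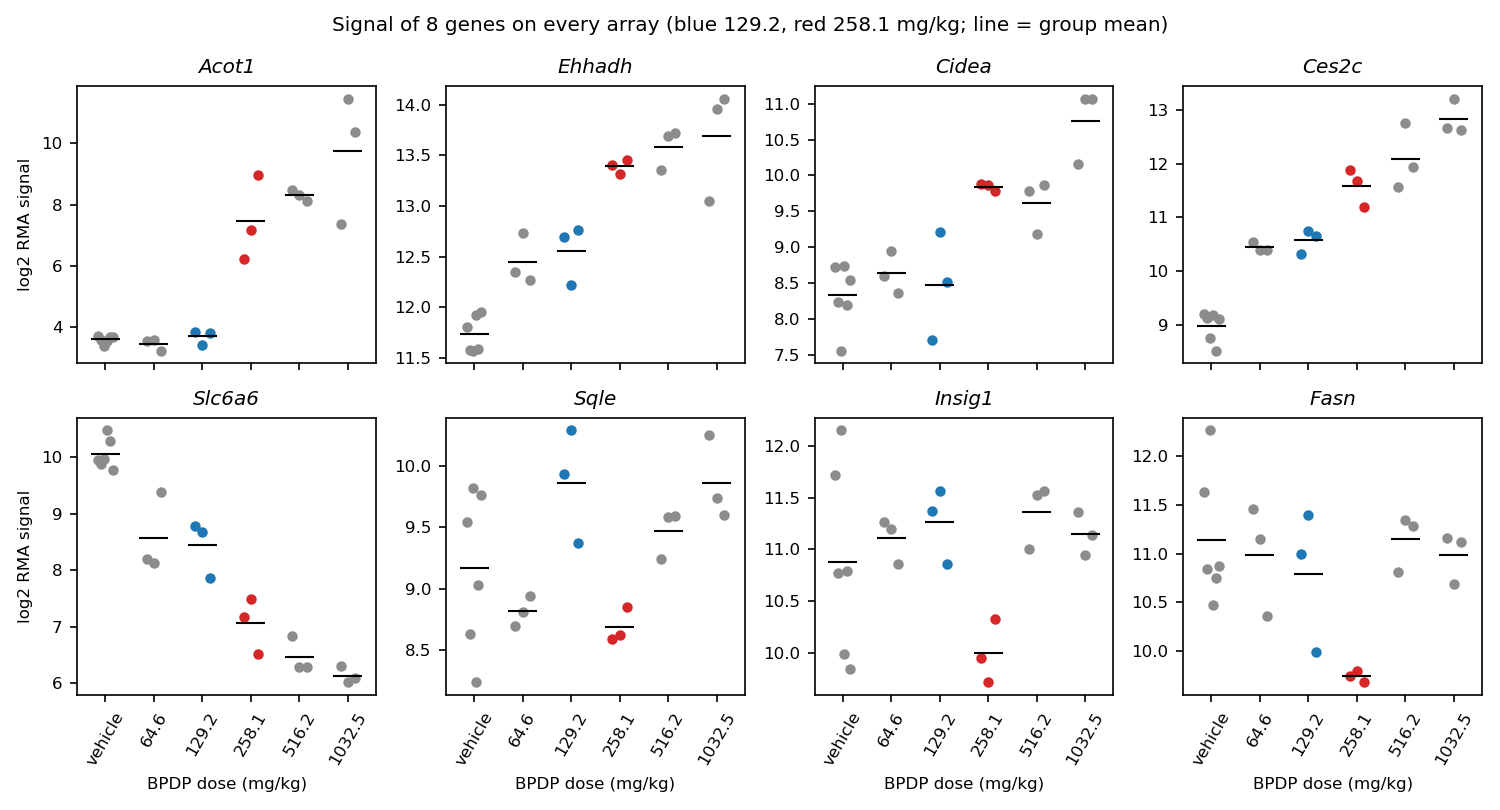
Log2 RMA signal (vertical axes) of 8 genes on all 21 arrays by dose (horizontal axes, mg/kg), each point an array and each line a group mean. Acot1 read 3.43 to 3.84 on the blue arrays (129.2 mg/kg) and 6.22 to 8.98 on the red ones (258.1 mg/kg), and for Sqle and Insig1 the red arrays lay below both the 129.2 and the 516.2 mg/kg arrays.

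In the peroxisome, where very long fatty acids are shortened, 20 of 21 listed genes had a positive difference, 6 were higher without overlap and 0 lower, and the median was 0.15. Without replicate 1 of 258.1 mg/kg, 9 were higher and 0 lower. Without replicate 1 of 129.2 mg/kg 10 were higher, and so were 1859 of all 14217 genes, against 723 with all arrays. The list median was 0.11 over the step below, close to the 0.15 of this step, and -0.03 over the step above. Ehhadh, the bifunctional enzyme that carries out the middle steps of the cycle, read 12.69, 12.22 and 12.76 at 129.2 mg/kg and 13.40, 13.32 and 13.45 at 258.1 mg/kg. Its upper arrays were close together and above every lower one, at a ratio of 1.78 (log2 difference 0.83, SE 0.21, 95% interval 0.40 to 1.26, adjusted p = 0.434). Against vehicle it rose at both doses, with adjusted p of 0.0481 and 1.88e-05. Further genes, chosen after their values were seen, were Ech1 (0.60, or 0.37 without replicate 3 of 258.1 mg/kg, arrays overlapping), the division factor Pex11a (0.41) and the reductase Decr2 (0.35). Catalase, Cat, the brightest member, differed by 0.05 (95% interval -0.12 to 0.23).

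Mitochondrial fatty acid oxidation and ketogenesis had 22 measured genes, of which 7 were higher without overlap and 0 lower, with a median of 0.13. The counts were 8 and 0 without replicate 1 of 258.1 mg/kg. Without replicate 2 of 258.1 or replicate 1 of 129.2 mg/kg 11 were higher. Over all 14217 genes those 2 settings gave 1701 and 1859 higher, against 723 with all arrays. The list median was 0.1 over the step below, close to the 0.13 of this step, and -0.01 over the step above. Decr1, the dienoyl-CoA reductase needed for unsaturated fatty acids, read 12.96, 12.87 and 13.26 at 129.2 mg/kg and 13.48, 13.40 and 13.60 at 258.1 mg/kg. It was chosen after its values were seen, and its log2 difference was 0.47 (SE 0.10, adjusted p = 0.331). Eci1, which moves a double bond so that oxidation can go on, read 12.82, 12.39 and 12.84 and then 13.30, 13.35 and 13.82, a difference of 0.80 (SE 0.20, adjusted p = 0.434). Its second probe set gave -0.19, so the 2 probe sets disagree in direction. Acsl1, the acyl-CoA synthetase and brightest member, differed by 0.06, and its next probe set by -0.15.

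Among the Cyp4 omega-hydroxylases, 2 of 10 were higher and 1 lower without overlap, and the median was -0.05. Cyp4a1, which hydroxylates the far end of fatty acids, read 12.23, 11.64 and 12.40 at 129.2 mg/kg and 12.78, 12.83 and 12.93 at 258.1 mg/kg. Its difference was 0.76 (SE 0.26, 95% interval 0.22 to 1.29, adjusted p = 0.776). Cyp4f1, the brightest of the list, differed by -0.05. The receptor itself, Ppara, read 6.48, 6.09 and 6.03 and then 5.90, 6.23 and 5.97, overlapping, and was picked after its values were seen. Of 9 genes for the receptor and its partners, 0 were higher and 0 lower without overlap, and the fatty acid binding protein Fabp1 differed by 0.08.

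Other PPAR alpha targets, a list of 24 genes on lipid droplets, glycerol and related steps, went both ways, with 5 higher and 2 lower without overlap and a median of 0.01. Cidea, a lipid droplet protein, read 7.71, 9.21 and 8.51 at 129.2 mg/kg and 9.88, 9.87 and 9.78 at 258.1 mg/kg. The lower arrays were spread over more than a log2 unit while the upper ones nearly coincided, and the ratio of the means was 2.58 (log2 difference 1.37, SE 0.33, adjusted p = 0.408). Vnn1, the pantetheinase, read 11.05, 10.62 and 10.79 and then 11.68, 11.32 and 11.90, a difference of 0.81 (SE 0.26, adjusted p = 0.73). Malic enzyme, Me1, differed by 0.78 and the lipid droplet coat protein Plin2 by -0.54, both chosen after their values were seen. Plin2 had fallen against vehicle at both doses (adjusted p = 0.0169 and 2.51e-05). Gpd1, the brightest member, differed by -0.15.

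**Figure D3:**
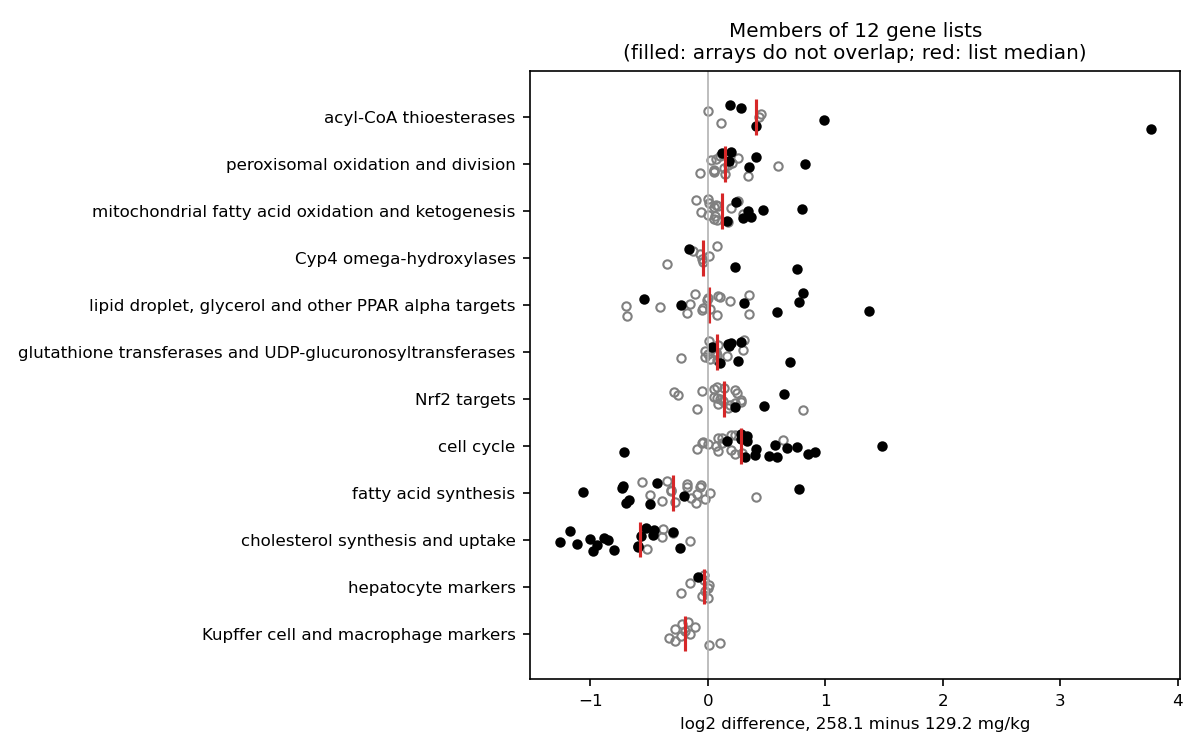
Log2 difference between 258.1 and 129.2 mg/kg (horizontal axis) of every measured member of 12 gene lists, filled where the 3 and 3 arrays did not overlap, with the list median in red. All 22 cholesterol genes lie left of 0 around a median of -0.58, and the thioesterase median is 0.41 with Acot1 at 3.77.

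The cholesterol genes were lower at 258.1 than at 129.2 mg/kg in all 22 measured members of synthesis and uptake. Of these, 17 did so without overlap and 0 were higher, against 4.21% of all genes lower. An unadjusted p under 0.05 was reached by 18, against 2.26% of all genes lower, and an adjusted p under 0.05 by 0. The median was -0.58, and without replicate 1 of 258.1 mg/kg it was -0.60 with the counts still 17 and 0. Insig1, which holds the SREBP complex in the endoplasmic reticulum and is itself an SREBP target, read 11.37, 11.56 and 10.86 at 129.2 mg/kg and 9.95, 9.72 and 10.33 at 258.1 mg/kg. Its ratio was 2.40 downward (log2 difference -1.26, SE 0.41, 95% interval -2.12 to -0.40, adjusted p = 0.75). The vehicle arrays ran from 9.85 to 12.15, and Insig1 did not pass against vehicle at 258.1 mg/kg (adjusted p = 0.275).

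The lower values ran from early to late enzymes of the pathway. Idi1, the isopentenyl diphosphate isomerase, read 11.14, 11.40 and 10.52 at 129.2 mg/kg and 9.95, 9.78 and 9.99 at 258.1 mg/kg, a difference of -1.11 (SE 0.29, adjusted p = 0.457), and its second probe set gave -1.63. Fdps, which makes farnesyl diphosphate and is the brightest member, differed by -0.59. Sqle, the squalene epoxidase, read 9.93, 10.29 and 9.37 and then 8.59, 8.62 and 8.85, a difference of -1.17 (SE 0.32, adjusted p = 0.49). Msmo1, the methylsterol monooxygenase, read 12.40, 12.77 and 11.98 and then 11.18, 11.41 and 11.56, a difference of -1.0 (SE 0.25, adjusted p = 0.434). For Idi1, Sqle and Msmo1, which were named under a rule that required arrays without overlap, replicate 3 was the lowest of the 129.2 mg/kg arrays. Their vehicle arrays ran from 9.76 to 10.99, from 8.24 to 9.82 and from 11.20 to 12.28. None of these genes passed against vehicle at 258.1 mg/kg (adjusted p = 0.411, 0.52 and 0.795). Picked after their values were seen, Acat2 differed by -0.98, Hsd17b7 by -0.94, Mvd by -0.88, Lss by -0.85 and Cyp51 by -0.80. The transcription factor gene Srebf2 differed by -0.46 and by -0.22 without replicate 3 of 258.1 mg/kg, while its second probe set gave -0.01.

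The direction of the cholesterol list turned at the neighbouring doses. Its median log2 difference was 0.36 from 64.6 to 129.2 mg/kg, -0.58 over the step described here, and 0.52 from 258.1 to 516.2 mg/kg. These steps share arrays, so the values are set side by side only. Msmo1 differed by 0.89 over the lower step and 0.73 over the upper one, and Sqle by 1.05 and 0.78. For Msmo1 the limma test of the step against the one below gave an unadjusted p of 0.000308 and against the one above 0.000723. Neither passed after adjustment. Msmo1 was named for its large difference over this step, which enters both tests, so these p-values are not separate support for a turn. Relative to vehicle, the median was 0.22 at 129.2 mg/kg and -0.48 at 258.1 mg/kg. At 258.1 mg/kg, 9 of the 22 genes had all 3 arrays below the 6 vehicle arrays and 5 had all 3 within the vehicle range; at 129.2 mg/kg the counts were 1 and 6. Adjusted p values against vehicle passed for 2 of the 22 at 258.1 mg/kg, both lower, and for 0 at 129.2 mg/kg.

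**Figure D4:**
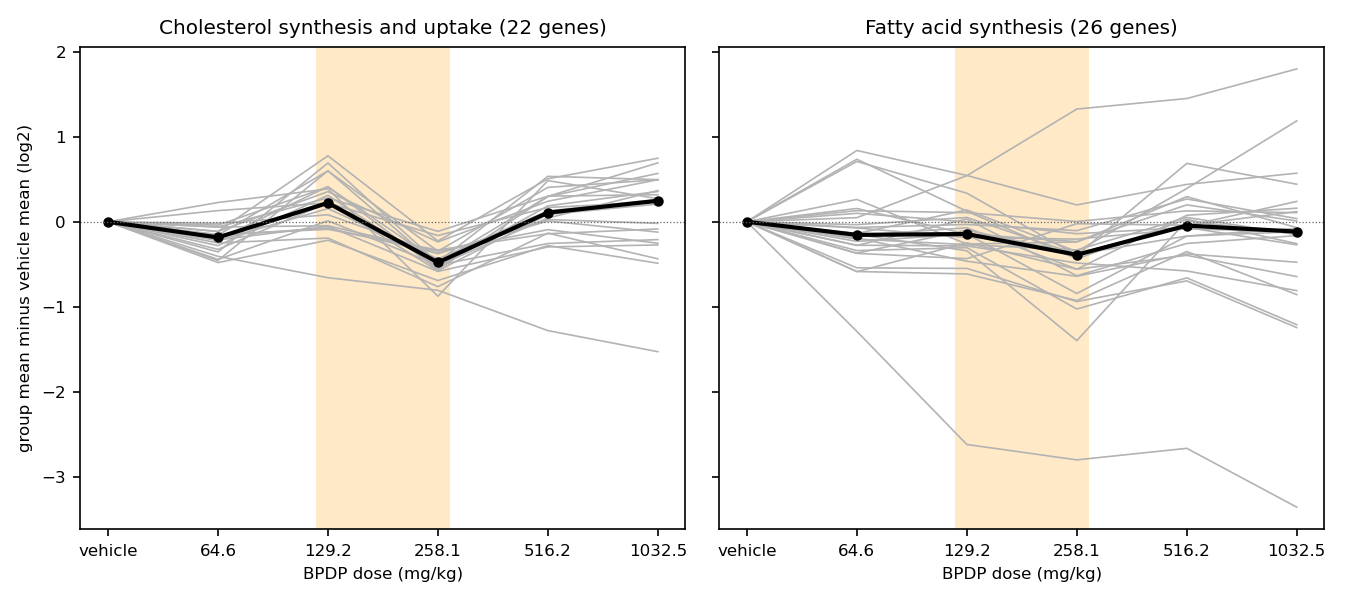
Group mean minus vehicle mean (vertical axis, log2) by dose (horizontal axis, mg/kg) for the 22 cholesterol genes (left) and 26 fatty acid synthesis genes (right), a grey line per gene and the list median in black, with the step from 129.2 to 258.1 mg/kg shaded. The cholesterol median goes from 0.22 to -0.48 across the shaded step, and most grey lines run with it and return at 516.2 mg/kg.

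Fatty acid synthesis gave a smaller difference in the same direction. Of 26 measured genes, 8 were lower without overlap and 1 higher (the same counts without replicate 1 of 258.1 mg/kg), and the median was -0.29. The mean log2 signal of the list ran from 9.70 to 10.19 at 129.2 mg/kg and from 9.68 to 9.78 at 258.1 mg/kg. The median was -0.19 without replicate 1, -0.21 without replicate 2 and -0.44 without replicate 3 of 129.2 mg/kg. Lower without overlap were 9, 9 and 13 genes without replicates 1, 2 and 3 of 129.2 mg/kg. Over all 14217 genes those settings gave 1215, 1079 and 1321 lower, against 599 with all arrays. Fasn, the fatty acid synthase, read 11.00, 11.40 and 9.99 at 129.2 mg/kg and 9.74, 9.80 and 9.68 at 258.1 mg/kg. Replicate 3 of the lower dose lay much nearer to the upper arrays than its 2 companions, and the ratio was 2.08 downward (log2 difference -1.06, SE 0.38, adjusted p = 0.829). A second Fasn probe set gave -1.20. The liver pyruvate kinase Pklr differed by -0.72, the citrate lyase Acly by -0.70, the acetyl-CoA synthetase Acss2 by -0.67 and the carboxylase Acaca by -0.49, with 0.11 on a second Acaca probe set; these 4 and Srebf1 were picked after their values were seen. Srebf1, whose product drives this pathway, differed by -0.56 with overlapping arrays. The member that was higher without overlap was Me1, described above. The list median was -0.03 over the step from 64.6 to 129.2 mg/kg. Over the step from 258.1 to 516.2 mg/kg it was 0.35, and Fasn differed by 1.41.

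The desaturase Scd behaved otherwise: it read 9.49, 8.16 and 8.08 at 129.2 mg/kg and 8.55, 8.11 and 8.53 at 258.1 mg/kg. These values overlap, with a difference of -0.18 (95% interval -1.48 to 1.12). Scd had fallen against vehicle at both doses (adjusted p = 0.0349 and 0.00661), where the vehicle arrays read 9.76 to 12.26. Elovl5, an elongase and the brightest member, differed by -0.20. Aacs, which returns acetoacetate to lipid synthesis in the cytosol, read 7.68, 8.34 and 7.90 and then 6.58, 6.82 and 6.75. Its difference was -1.26 (SE 0.33, adjusted p = 0.457). The vehicle arrays ran from 6.66 to 8.50, and Aacs did not pass against vehicle at 258.1 mg/kg (adjusted p = 0.393).

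Lipoprotein secretion and lipases had 3 of 20 genes lower and 0 higher without overlap, with a median of -0.12. The lower count was 8 without replicate 2 and 6 without replicate 3 of 129.2 mg/kg. Over all 14217 genes those settings gave 1079 and 1321 lower, against 599 with all arrays. Angptl8, a secreted partner in the inhibition of lipoprotein lipase, was picked after its values were seen and read 11.36, 10.23 and 10.57 and then 9.92, 9.66 and 9.89. Its difference was -0.90 (SE 0.42, adjusted p = 0.964), or -0.58 without replicate 1 of 129.2 mg/kg. The brightest member, Apoc3, differed by -0.07. Of 18 bile acid synthesis and transport genes, 3 were lower and 0 higher without overlap, and the conjugating enzyme Baat differed by 0.02.

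Slc6a6, the taurine transporter of the cell membrane, read 8.78, 8.68 and 7.86 at 129.2 mg/kg and 7.17, 7.50 and 6.52 at 258.1 mg/kg, against 9.77 to 10.48 on the vehicle arrays. The 2 doses did not overlap, at a ratio of 2.60 downward (log2 difference -1.38, SE 0.30, 95% interval -2.0 to -0.75, adjusted p = 0.331). A second probe set gave -0.94. Against vehicle it fell at both doses (adjusted p = 0.00513 and 1.38e-06). Of the 15 taurine and cysteine genes, Slc6a6 included, 2 were lower and 0 higher without overlap, the median was -0.08, and the dioxygenase Cdo1 differed by 0.08.

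Tubb2a, a beta-tubulin, had the same order of doses. It read 11.21, 11.58 and 10.32 at 129.2 mg/kg and 10.25, 10.10 and 9.77 at 258.1 mg/kg, and the vehicle arrays read 12.26 to 12.77. The difference was -1.0 (SE 0.24, 95% interval -1.49 to -0.50, adjusted p = 0.408). It had fallen against vehicle at both doses (adjusted p = 0.00127 and 8.41e-07). Of 11 tubulins 1 was higher and 1 lower without overlap, the median was -0.05, and Tubb4b, the brightest, differed by -0.23.

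Of the enzymes for foreign compounds, 20 of 23 conjugating enzymes, 19 of 23 Nrf2 targets, 13 of 20 genes of the CAR and PXR list, 9 of 13 carboxylesterases and paraoxonases and 6 of 9 genes of the aryl hydrocarbon receptor list had a difference above 0, as did 7926 of all 14217 genes. Ces2c, a carboxylesterase that cleaves ester bonds, read 10.31, 10.74 and 10.66 at 129.2 mg/kg and 11.89, 11.68 and 11.19 at 258.1 mg/kg. The arrays did not overlap, and the ratio was 2.02 (log2 difference 1.02, SE 0.25, 95% interval 0.50 to 1.53, adjusted p = 0.434). It had risen against vehicle at both doses (adjusted p = 0.000978 and 8.41e-07), and it was the 1 gene of 13 carboxylesterases and paraoxonases that was higher without overlap, with 0 lower. The brightest of them, Ces1c, differed by 0.07 and by -0.38 on its second probe set.

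Of 23 glutathione transferases and UDP-glucuronosyltransferases, which conjugate foreign compounds, 8 were higher and 0 lower without overlap, before and after leaving out replicate 1 of 258.1 mg/kg, and the median was 0.08. Gsta3 read 9.41, 9.47 and 8.93 and then 10.08, 9.96 and 9.87, a difference of 0.70 (SE 0.22, adjusted p = 0.73). It had risen against vehicle at both doses (adjusted p = 0.00409 and 8.64e-06). Its relatives share much sequence, so their probe sets may not separate them fully. Mgst1, the brightest member, differed by 0.04.

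Nrf2 targets had 3 of 23 genes higher and 0 lower without overlap (5 and 1 without replicate 1 of 258.1 mg/kg), with a median of 0.14. Nqo1, a quinone reductase picked after its values were seen, read 8.70, 8.57 and 8.59 and then 9.21, 9.38 and 9.23, a difference of 0.65 (SE 0.18, adjusted p = 0.514). Over the step below it had differed by -0.65. Abcc3, an exporter of conjugates, read 7.98, 9.10 and 8.26 and then 9.39, 9.78 and 8.60, overlapping, with a difference of 0.81 (SE 0.31, adjusted p = 0.857). The epoxide hydrolase Ephx1, brightest of the list, differed by 0.09.

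Among 20 genes of the constitutive androstane and pregnane X receptors, 4 were higher and 0 lower without overlap (7 and 0 without replicate 1 of 258.1 mg/kg), the median was 0.07, and Cyp3a2 differed by 0.06. The aryl hydrocarbon receptor list had 2 of 9 higher and 1 lower, with a median of 0.06. Its marker Cyp1a1 read 5.64, 6.06 and 5.88 and then 6.60, 6.58 and 6.77, a difference of 0.79 (SE 0.28, adjusted p = 0.826). Cyp1a2, which shares that regulation, differed by -0.20, also without overlap.

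Cell cycle genes were higher at 258.1 mg/kg in 16 of 33 without overlap, against 5.09% of all genes, and 1 was lower. Those counts were the same without replicate 1 of 258.1 mg/kg, where 8.15% of all genes were higher. An unadjusted p under 0.05 was reached by 7, all higher, against 2.55% of all genes, and the median was 0.28. The list median was 0.15 over the step below and 0.19 over the step above. Cdkn3, a phosphatase of cyclin-dependent kinases, read 8.05, 7.12 and 7.25 at 129.2 mg/kg and 8.79, 8.98 and 9.10 at 258.1 mg/kg, a ratio of 2.80 (log2 difference 1.48, SE 0.48, adjusted p = 0.75). Over the step below it had differed by 2.59, and the vehicle arrays ran from 5.31 to 8.0. The mitotic cyclin Ccnb2 read 7.0, 6.57 and 6.90 and then 7.73, 7.85 and 7.61, a difference of 0.91 (SE 0.30, adjusted p = 0.75).

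Spc24, a kinetochore protein outside the list, read 7.27, 7.02 and 7.22 and then 8.15, 8.03 and 8.25. Replicates were tight and the difference was 0.98 (SE 0.24, adjusted p = 0.434). Birc5, the survivin gene, differed by 0.52, and Top2a, a topoisomerase of dividing cells, by 0.20 with overlapping arrays. Ccna2 differed by 0.85, Mki67 by 0.64 (0.34 without replicate 3 of 129.2 mg/kg) and Aurkb by 0.59; these 3 had a mean at 129.2 mg/kg below the lower quartile of signals, so no fold is given. Birc5, Top2a, Mki67 and Aurkb were picked after their values were seen. Cdkn1b, the brightest of the list, differed by 0.07. At 258.1 mg/kg 23 of the 33 genes had all 3 arrays within the range of the 6 vehicle arrays, and 3 had all 3 above it. From 516.2 to 1032.5 mg/kg Cdkn3 differed by -2.65, Ccna2 by -1.70, Ccnb2 by -1.48 and Mki67 by -1.43. Spc24, Birc5, Top2a and Aurkb were also lower there, and Cdkn1b was higher by 0.16.

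Genes outside the lists made up the rest of the 15 largest differences in each direction. Of the higher ones, the palmitoyltransferase Zdhhc2 read 7.60, 7.39 and 7.32 and then 8.45, 8.12 and 8.26, a difference of 0.84 (SE 0.17, adjusted p = 0.307). The lipid hydrolase Aig1 differed by 0.87, with 0.06 on a second probe set, and the sorting nexin Snx10 by 0.86, with 0.12 on a second one. Nat8, an acetyltransferase, differed by 0.84, and replicate 3 of 258.1 mg/kg read 10.82 against 9.49 and 9.67. Without that array the difference was 0.42.

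Of the lower ones, the sialyltransferase St6galnac3 read 5.98, 5.48 and 5.98 at 129.2 mg/kg and 4.60, 4.73 and 4.94 at 258.1 mg/kg. The difference was -1.06 (SE 0.20, adjusted p = 0.241), with the upper mean below the lower quartile of signals. The mean of 5.81 at 129.2 mg/kg was the highest of all groups. The others were 5.11 for vehicle and 4.82, 4.79 and 4.65 at 64.6, 516.2 and 1032.5 mg/kg. Nfe2, a transcription factor of blood cell precursors, read 7.41, 7.0 and 7.24 and then 5.34, 5.16 and 6.58, a difference of -1.52 (SE 0.49, adjusted p = 0.735). Palld, which organises actin, read 9.33, 9.53 and 8.72 and then 7.05, 8.16 and 8.13. Its difference was -1.41 with all arrays and -1.05 without replicate 1 of 258.1 mg/kg, the array of low RNA integrity.

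That array was also the lowest of the 6 for Tcf4 and Sv2b. Tcf4, a transcription factor, differed by -1.10, by -0.73 without the array, and by -0.23 on a second probe set. Sv2b, a vesicle protein, differed by -1.25, by -0.96 without the array, and by 0.03 on a second probe set. Tbc1d12, a GTPase-activating protein by its domain, differed by -1.23 and Cped1 by -1.03. Genes picked after their values were seen included Son, a splicing cofactor, which differed by -0.95 on its brightest probe set and -0.23 on the next, and Arid1a, a chromatin remodelling subunit, by -0.90 and -0.12. Mycbp2, a ubiquitin ligase, differed by -0.29 and -0.90, and Celf1, an RNA-binding protein, by -0.14 and -0.47. Without the array, Tbc1d12 differed by -1.23 and Cped1 by -0.98. On their brightest probe sets Son then differed by -0.87, Arid1a by -0.80, Mycbp2 by -0.30 and Celf1 by -0.20. How far RNA integrity bears on these genes was not tested beyond leaving out the array and adding integrity to the model.

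Of 19 circadian clock genes, 1 was higher and 0 lower without overlap. At an unadjusted p under 0.05, 2 were higher and 2 lower, against 2.55% and 2.26% of all genes, and 0 passed after adjustment. These 4, picked after their values were seen, were Bhlhe41 at 0.48, Cry1 at 0.55, Bmal1 at -0.71 and Npas2 at -0.82. They are not among the 102 named genes whose differences were recomputed. Dbp, a clock output factor, read 10.31, 9.61 and 10.19 at 129.2 mg/kg and 10.04, 9.95 and 10.94 at 258.1 mg/kg, against 5.44 to 6.10 on the vehicle arrays. Its difference between the doses was 0.27 (95% interval -0.29 to 0.83). It was -0.04 without replicate 3 of 258.1 mg/kg and 0.45 without replicate 2. Nr1d2, a clock repressor, differed by -0.06. Zfp354a, a zinc finger gene, read 11.69, 11.09 and 10.62 and then 10.58, 10.78 and 12.36, a difference of 0.11 (95% interval -0.81 to 1.03). Both genes had risen against vehicle at both doses (for Dbp, adjusted p = 1.97e-09 and 6.05e-10; for Zfp354a, 0.00232 and 0.000439).

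Stress and defence lists gave counts of 0 to 5 genes apart in either direction. The ATF4 and amino acid response list had 0 of 23 higher and 3 lower without overlap, and its brightest member Atf5 differed by -0.40. Of 23 chaperone and heat shock genes 1 was higher and 0 lower, and Hspa5 differed by -0.04. The p53 targets had 0 of 11 higher and 1 lower, and Ccng1 differed by 0.40 with overlapping arrays. Immediate early genes had 1 of 21 higher and 3 lower (5 and 3 without replicate 1 of 258.1 mg/kg), and Jund differed by -0.40, with 0.10 on its second probe set. The acute phase and complement list had 0 of 28 higher and 5 lower, and albumin, Alb, read 15.33 to 15.35 on all 6 arrays. In the interferon list 0 of 21 were higher or lower, and Ifi27 differed by -0.14. Without replicate 1 of 258.1 mg/kg 6 were higher and the list median went from 0.04 to 0.24. Without replicate 2 of that dose 0 were higher, 3 were lower and the median was -0.14. Of all 14217 genes, 1158 were higher without replicate 1 and 1254 lower without replicate 2. With all arrays 723 were higher and 599 lower.

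Metabolic and hormonal lists gave counts of 0 to 4 genes apart in either direction. Urea cycle and amino acid catabolism had 2 of 31 higher and 4 lower without overlap, and the dioxygenase Hpd differed by -0.11. Without replicate 3 of 129.2 mg/kg 11 were lower, and so were 1321 of all 14217 genes, against 599 with all arrays. Gluconeogenesis and glycogen had 2 of 16 higher and 3 lower, and Pck1, its brightest gene and also that of the glucocorticoid list, differed by -0.03. The growth hormone and sex-biased list had 0 of 21 higher and 1 lower. Glucocorticoid targets and metallothioneins had 0 of 16 higher and 1 lower. Haem synthesis and breakdown had 1 of 12 higher and 0 lower, and Alad differed by -0.14.

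Markers of other liver cells were counted in the same way. Of 11 Kupffer cell and macrophage markers 0 were apart, and their mean signal ran from 9.59 to 9.93 at 129.2 mg/kg and from 9.23 to 9.88 at 258.1 mg/kg. Their median difference was -0.19 and went to 0.05 without replicate 1 of 258.1 mg/kg. Without replicate 2 of that dose it was -0.38 with 2 markers lower without overlap, and without replicate 1 of 129.2 mg/kg it was -0.29. Of all 14217 genes, 1254 were lower without replicate 2 of 258.1 mg/kg, against 599 with all arrays. Clec4f differed by -0.11. Likewise 0 were apart of 14 lymphocyte, 6 neutrophil, 16 stellate cell and fibroblast, 12 endothelial and 5 red cell markers. Without replicate 1 of 129.2 mg/kg, 7 of the 16 stellate cell and fibroblast markers were lower without overlap. So were 1215 of all 14217 genes, against 599 with all arrays. The mean signals of these marker lists at 129.2 and 258.1 mg/kg ran from 5.60 to 5.82 and 5.65 to 5.99 for lymphocytes. For neutrophils they ran from 5.12 to 5.26 and 5.11 to 5.17. For stellate cells they ran from 7.58 to 8.03 and 7.54 to 7.93, for endothelium from 8.15 to 8.55 and 8.35 to 8.51, and for red cells from 7.51 to 7.78 and 7.45 to 7.76. The brightest markers differed by 0.07 for Ptprc, -0.03 for S100a9, -0.06 for Col3a1, 0.04 for Lyve1 and -0.26 for Hbb. Of 8 cholangiocyte markers 1 was lower, Onecut2 at -0.34, and of 10 hepatocyte markers 1 was lower and 0 higher.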

How the data were processed

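Liver RNA of 21 rats' samples (100 ng of total RNA per labelling) was measured on an Affymetrix rat array. The authors deposited log2 signals, 1 per probe set and array, which the submitters' processing notes name as RMA output; its software and settings are not given in the sources used. No scaling, filter or pseudocount was added, and arrays carry no read depth, so the number of arrays limits precision. After 57 controls were left out, 31042 probe sets were tested, and those naming 1 gene gave 14217 genes, each represented by its brightest probe set.

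limma 3.58.1 in R 4.3.3 was fitted to all 21 arrays with 1 mean per dose, p-values were adjusted (Benjamini-Hochberg) over all probe sets, and the threshold was 0.05. The step was also tested against the adjoining steps. Groups came from array titles. The comparison and the 38 gene lists were chosen with earlier results of these data known. Named genes were the 15 largest differences each way, 14 index genes, the brightest member of each list, and others said to be picked later. Where fewer than 15 passed the threshold, places went to genes with no overlap and an unadjusted p under 0.05, which here filled all of them. Promoter sequences are RefSeq's, and 84 of 102 named genes had one. The fit was tested on simulated data. Replicate numbers did not pair the arrays. Alternatives were 1.5-fold, other normalizations, dim probe sets left out, another variance model, array weights, integrity, replicate block, fewer samples, and each array left out.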

Additional observations from a re-analysis of the deposited data

Results flagged for a closer look

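Of 37 named genes tested for a vehicle array far from the other 5, 4 stood out, and chance alone gives about 1 in 20. The gap to the nearest array, as a share of the range of the 6 vehicle arrays, exceeded the critical value of 0.625. For Zdhhc2 the share was 0.626, with replicate 3 at 6.30 and the nearest array at 6.82. For Eci1 it was 0.768, again replicate 3, at 11.85 against 12.25. Replicate 6 stood out in both others: for Sv2b the share was 0.818, at 7.12 against 8.42, and for Tcf4 it was 0.76, at 6.93 against 7.96. The vehicle arrays enter the comparison of the 2 doses only through the estimate of spread. Among the lower genes outside the lists, replicate 6 was also the lowest vehicle array for Palld, Tbc1d12, Cped1, Son, Arid1a and Mycbp2. It was not for Nfe2, St6galnac3 and Celf1. Palld read 6.89 on it, Tbc1d12 4.91, and Son and Arid1a 8.97. Their means at 258.1 mg/kg were 7.78, 5.23, 9.11 and 9.19. The RNA integrity difference of replicate 6 was -2.40, the lowest of the vehicle arrays. How far this bears on the dose comparison was not tested.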

How the results depend on the processing

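The count of 0 probe sets and 0 genes past the threshold between 258.1 and 129.2 mg/kg stayed at 0 when a 1.5-fold change was also required, with only the 6 arrays, with cyclic loess, with each array's median subtracted, without dim probe sets and with another variance model; genes also stayed at 0 when a gene's probe sets were averaged. Array weights gave 568 probe sets and 242 genes, and RNA integrity as a covariate gave 1 and 1, Acot1. The replicate block, on dosed arrays, gave 6 probe sets and 4 genes (Aacs, St6galnac3, Son and Arid1a), and the dosed arrays without the block 10 and 5, Insig1 being the fifth. The numbers do not pair the arrays: the deviations of same-numbered arrays from their dose means correlated at 0.053, 0.112 and -0.28. With only the arrays of 64.6, 129.2 and 258.1 mg/kg, an alternative chosen after seeing the data as was the fit of dosed arrays without the block, there were 11 probe sets and 4 genes (Acot1, Spc24, Aacs and Son); with 129.2, 258.1 and 516.2 mg/kg 0. Leaving out each array gave 0 to 1 probe sets and 0 genes, the 1 without replicate 3 of 258.1 mg/kg. The difference from the step below went from 0 to 840 probe sets with array weights, 2 with the block and 1 with only the 3 doses, and that from the step above to 14 with array weights, 8 with the block, 6 on dosed arrays without it, and 0 to 1 with an array left out. The cause was not tested. For neighbouring steps array weights gave 126 in place of 77 from vehicle to 64.6 mg/kg, 206 in place of 0 from 64.6 to 129.2 mg/kg, and 10 in place of 0 from 516.2 to 1032.5 mg/kg, where another variance model gave 1. Of 1801 recomputed differences of the 102 named genes, 1701 kept direction and side of the threshold, 60 passed it and 40 changed sign, and 79 genes never changed sign. On the next brightest probe set the sign changed for Eci1 (-0.19), Sv2b (0.03), Acsl1 (-0.15, and -0.02 as a mean of probe sets), Gpd1 (0.04), Ces1c (-0.38, mean -0.16), Cdkn1b (-0.03), Jund (0.10), Lyve1 (-0.49, mean -0.22) and Acaca (0.11). With array weights it changed for Scd (0.10), Zfp354a (-0.07), Cyp4f1 (0.03), Ptprc (-0.01) and Lyve1 (-0.11). Leaving out single arrays took Scd from -0.43 to 0.27, Dbp from -0.04 to 0.45, Zfp354a from -0.45 to 0.44, Cat from 0.00 to 0.11, Baat from -0.02 to 0.06, Nr1d2 from -0.17 to 0.00, Hspa5 from -0.11 to 0.00, Alb from -0.01 to 0.00, Pck1 from -0.18 to 0.20, Clec4f from -0.32 to 0.07, Ptprc from -0.04 to 0.19, S100a9 from -0.25 to 0.13, Col3a1 from -0.28 to 0.11 and Lyve1 from -0.09 to 0.15.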
